A study of Mus musculus with 6 samples.

Results

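Chondroitin sulfate proteoglycans are core proteins that carry long sulfated sugar chains, and oligodendrocyte precursor cells (OPC), the dividing and migrating glia that later form myelin, are among the cells of the brain richest in them. The genes described here are 10 members of this group: 6 core proteins (Cspg4, Cspg5, Bcan, Ncan, Vcan and Ptprz1) and 4 enzymes that start or sulfate the chains (Xylt1, Chst3, Chst7 and Chst11), out of 11226 named genes tested. They were chosen by their function with earlier results of the same tissue contrast in view, and Chst7 had stood out there by its intensity difference, so the members' differences between tissues are given as a description with no p. All 10 were found on the array by symbol or older synonym, through 21 probes. Of these, 19 lay above the background floor on at least 3 of the 6 arrays and 2 did not, and every gene had at least 1 probe above the floor on all 6 arrays.

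The arrays compared primary OPC cultures of C57BL/6 mouse cerebrum (3 samples) with those of spinal cord (3 samples). Both kinds came from pups at postnatal day 6 to 8, were cultured for 7 days under conditions that keep them dividing, and received 10 ng/ml PDGF-AA, the growth factor that drives OPC division. By the series' design text, a cell preparation pools 3 to 4 pups, and cerebrum and spinal cord samples of the same number come from the same preparation. RNA was measured on Illumina bead arrays as 1 intensity per probe. In cultures, fewer cells of a type and less RNA per cell cannot be told apart.

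In the making of a chain, a xylosyltransferase such as Xylt1 first attaches xylose to the core protein, glycosyltransferases then build the alternating sugar polymer, and sulfotransferases finally decorate it. Chst11 adds sulfate to the fourth carbon of N-acetylgalactosamine, and Chst3 and Chst7 add it to the sixth carbon. Which carbon carries the sulfate changes how growth factors, guidance cues and axons respond to the chains, and in injured tissue such proteoglycans are known to hold back axons and OPC.

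Of the 10 members, Chst7 differed most between the tissues. Its intensity was 3.67-fold higher in cerebrum OPC than in spinal cord OPC, while Chst3 and Chst11 had ratios of cerebrum over spinal cord of 1.08 and 1.04, and the brightest probes of the other 7 had ratios between 0.884 and 1.29. In the limma fit over all probes, 1 of the 10 members (Chst7) lay past an adjusted p of 0.05, higher in cerebrum, beside 2.95% of all tested genes in either direction, 1.08% higher in cerebrum and 1.87% higher in spinal cord. The members were picked with this contrast known, so nothing is read from that count.

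The sequence upstream of Chst7 is shown with that of Chst3, since both encode enzymes that sulfate the same carbon and Chst7 but not Chst3 had a wide difference between the tissues. The windows hold the 250 bases before the gene start in RefSeq (GRCm38.p6), at chrX:20059320-20059569 on the plus strand for Chst7 and chr10:60219261-60219510 on the minus strand for Chst3. Capitals mark the GC box GGGCGG, searched on both strands.
Chst7: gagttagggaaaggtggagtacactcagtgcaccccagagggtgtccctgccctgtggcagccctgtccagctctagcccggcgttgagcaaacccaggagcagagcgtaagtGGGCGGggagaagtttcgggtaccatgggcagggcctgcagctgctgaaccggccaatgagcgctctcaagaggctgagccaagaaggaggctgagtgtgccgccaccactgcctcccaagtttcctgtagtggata
Chst3: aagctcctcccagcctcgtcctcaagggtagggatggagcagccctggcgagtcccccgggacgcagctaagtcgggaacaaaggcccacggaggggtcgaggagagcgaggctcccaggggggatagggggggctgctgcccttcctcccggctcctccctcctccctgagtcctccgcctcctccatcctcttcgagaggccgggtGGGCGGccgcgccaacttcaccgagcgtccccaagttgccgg
Each window held 1 GC box, a motif found in 32.7% of all 32851 upstream windows of this length. It was also present in the windows of the other 6 members that had one, with 1 to 3 matches, and Cspg5 and Xylt1 were not matched. Chst7 had 8 CG pairs and Chst3 18, against a median of 6 over all windows. The homeodomain letters TAATTA (4.84% of windows) and TAATCC (6.25%), searched on both strands, were in neither window, nor were the letters TATAAA (12.4%). A match is a description of the letters and not a measured binding site.

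The sulfotransferases and the chain-starting enzyme are taken first. Chst7, measured by 1 probe, had log2 intensities of 10.15, 10.20 and 9.51 in cerebrum OPC, against 8.00, 8.31 and 7.93 in spinal cord OPC. The lowest cerebrum array, of preparation 3, still lay above the highest spinal cord array, and the groups did not overlap. The means were 9.95 ± 0.39 in cerebrum and 8.08 ± 0.20 in spinal cord (SD, n = 3 each), a log2 difference of 1.87 ± 0.18 (cerebrum minus spinal cord, SE). Within preparations the difference was 2.16, 1.89 and 1.58. Chst7 held place 9 of 11226 genes when these were ordered by how far cerebrum exceeded spinal cord. All 6 arrays were far above the floor of 6.07 to 6.10, which is set by olfactory receptor probes. Once the median of those probes was subtracted from each array, the log2 difference was 2.11.

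**Figure D1:**
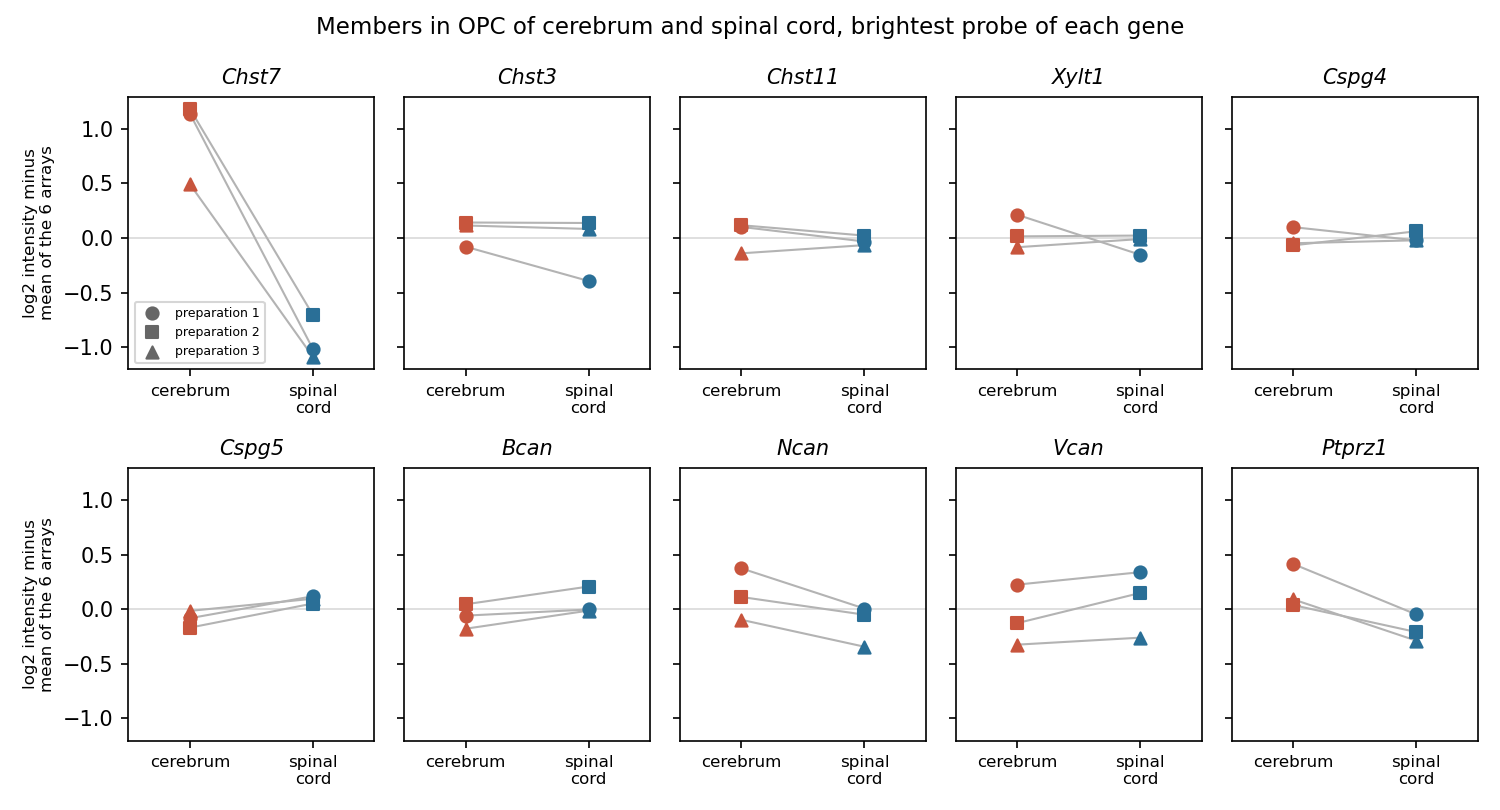
Log2 intensity of each member's brightest probe minus its mean over the 6 arrays, for cerebrum OPC (red, left) and spinal cord OPC (blue, right), with symbols for the 3 preparations and grey lines joining samples of the same preparation. Chst7 drops steeply in all 3 preparations, by 2.16, 1.89 and 1.58, while the points of the other 9 genes stay within a narrow band.

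Chst3, the other sulfotransferase of the sixth carbon, had 8.08, 8.30 and 8.27 in cerebrum OPC, against 7.76, 8.30 and 8.24 in spinal cord OPC on its brighter probe. The tissues overlapped, and only spinal cord replicate 1 was low. The difference was 0.12 ± 0.14 (SE) on this probe and -0.01 ± 0.11 on its second. Chst11, which sulfates the fourth carbon, had 9.87, 9.89 and 9.63 in cerebrum OPC, against 9.74, 9.79 and 9.70 in spinal cord OPC. Its differences of 0.05 ± 0.11 and, on a dimmer probe, 0.14 ± 0.13 were of the size of their errors, and the arrays overlapped on both probes.

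Xylt1, the xylosyltransferase that starts the chain, had 7.04, 6.84 and 6.74 in cerebrum OPC, against 6.67, 6.85 and 6.82 in spinal cord OPC, a difference of 0.09 ± 0.11 (SE), with overlapping groups. Its second probe was near the floor, above it on 2 of 3 cerebrum and 1 of 3 spinal cord arrays, with a difference of 0.06 ± 0.08.

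Among the core proteins, Cspg4 is the NG2 proteoglycan that serves as a surface marker of OPC. Its intensities were 10.10, 9.93 and 9.95 in cerebrum OPC, against 9.98, 10.06 and 9.98 in spinal cord OPC. The tissues overlapped, and the difference was -0.01 ± 0.10 (SE), the smallest of the 10 brightest probes. Cspg5, or neuroglycan C, a membrane proteoglycan with an EGF-like domain, had 11.38, 11.29 and 11.45 in cerebrum OPC, against 11.58, 11.51 and 11.56 in spinal cord OPC. All 3 spinal cord arrays were higher on this probe, with a difference of -0.18 ± 0.10, while its dimmer probe gave 0.02 ± 0.16 and overlapped.

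Ptprz1, a receptor tyrosine phosphatase whose extracellular part carries chondroitin sulfate and whose secreted form is phosphacan, was after Chst7 the member with the next largest difference. Its brighter probe had 12.82, 12.44 and 12.49 in cerebrum OPC, against 12.36, 12.19 and 12.11 in spinal cord OPC. The groups did not overlap, and the difference was 0.36 ± 0.12 (SE), a 1.29-fold higher intensity in cerebrum. The second probe had a smaller difference, 0.16 ± 0.11, and its arrays overlapped, yet cerebrum was higher in all 3 preparations on both probes. With the preparation as a block in the fit, 2 of the 10 members lay past the threshold, Chst7 and Ptprz1, beside 6.33% of all tested genes.

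The lecticans are secreted core proteins that bind hyaluronan in the matrix. Neurocan (Ncan) had 11.04, 10.78 and 10.57 in cerebrum OPC, against 10.67, 10.62 and 10.32 in spinal cord OPC. Cerebrum was higher within each preparation, by 0.37, 0.16 and 0.25, but the groups overlapped, since both tissues were lowest in preparation 3. The difference was 0.26 ± 0.14 (SE) without the block and had an SE of 0.08 with it, where it did not pass. Brevican (Bcan) had 10.14, 10.24 and 10.02 in cerebrum OPC, against 10.19, 10.40 and 10.18 in spinal cord OPC, and differed by -0.13 ± 0.11, with overlapping groups and -0.06 ± 0.11 on its second tested probe.

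Versican (Vcan) was read by 4 tested probes, which did not give the same picture. The brightest had 7.79, 7.44 and 7.24 in cerebrum OPC, against 7.90, 7.71 and 7.30 in spinal cord OPC, where preparations differed more than tissues and the difference was -0.15 ± 0.17 (SE). A second probe had 7.61, 7.43 and 7.12 in cerebrum OPC, against 7.71, 7.68 and 7.79 in spinal cord OPC, without overlap, and a difference of -0.34 ± 0.13. The other two gave 0.04 ± 0.14 and -0.14 ± 0.10 and overlapped. The 2 member probes that were not tested belong to Bcan and Vcan (there under the old symbol Cspg2) and lay below the floor on all 6 arrays.

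Over the 10 members, the 3 arrays of one tissue lay apart from those of the other for 3 genes (Chst7 and Ptprz1 higher in cerebrum, Cspg5 higher in spinal cord), beside 15.6% of all tested genes. On the brightest probes, 7 of the 10 had the same sign in all 3 preparations. Cerebrum was higher for Chst7, Chst3, Ncan and Ptprz1 and lower for Cspg5, Bcan and Vcan. The share over all tested genes was not computed, so nothing is read from that count. Within preparations Chst3 differed by 0.31, 0.004 and 0.03, and its second probe had mixed signs, as did dimmer probes of Cspg5, Bcan and Vcan. The median difference was 0.07 over the members and -0.00 over all tested genes. No tested member probe other than that of Chst7 had a difference above 0.36 in size.

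**Figure D2:**
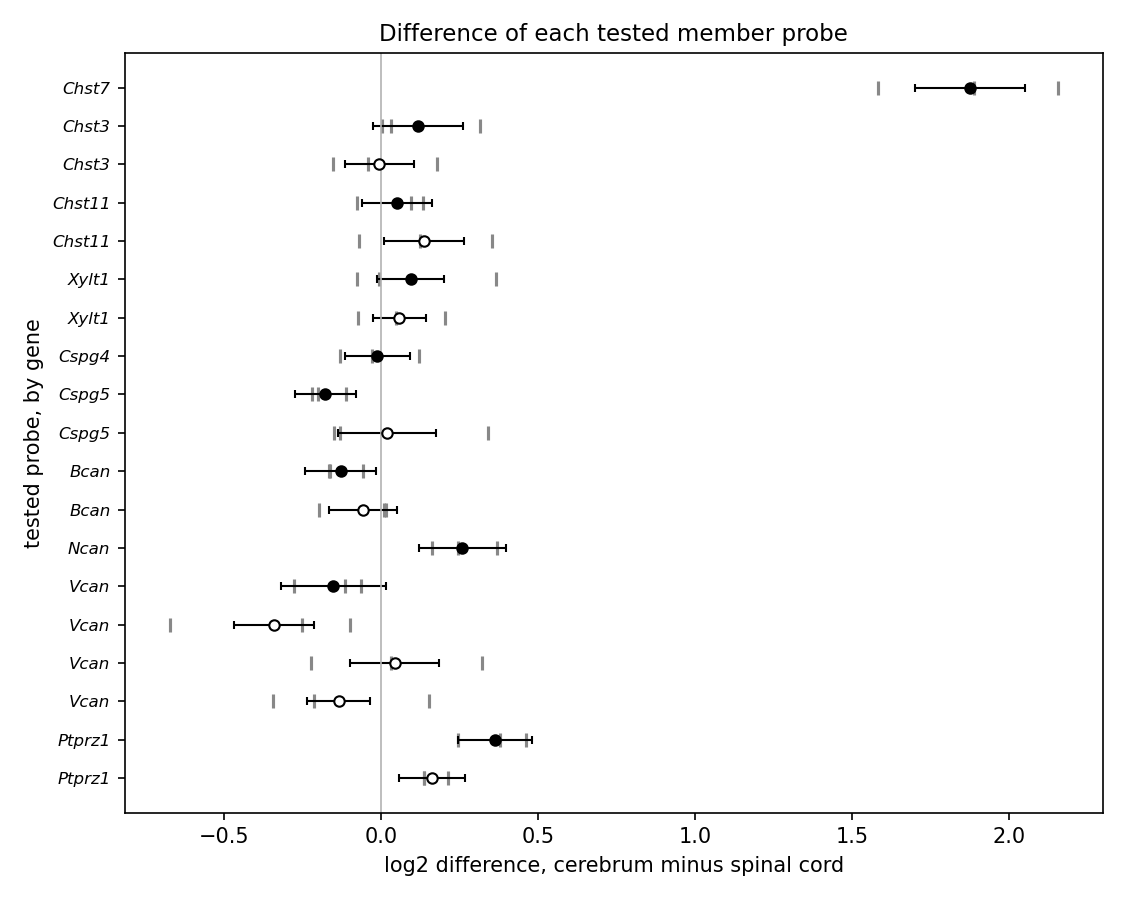
Log2 difference, cerebrum minus spinal cord, of the 19 tested member probes, with bars for 1 SE. Filled circles are the brightest probe of a gene, open circles its other probes, and grey ticks the 3 differences within preparations. The Chst7 probe stands at 1.87, and all others lie between -0.34 and 0.36.

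The rest of the chondroitin sulfate pathway was followed in lists of genes that are not members. In the 3 lists for making the chain (linker, polymer, sulfation with epimerisation), 0 of 13 tested genes passed in limma in either direction, and 2 had an unadjusted p under 0.05, both chain polymerising enzymes. The chondroitin N-acetylgalactosaminyltransferase gene Csgalnact1 had 7.72, 7.15 and 7.28 in cerebrum OPC, against 7.82, 7.62 and 7.86 in spinal cord OPC, a difference of -0.38 ± 0.14 (SE, limma adjusted p = 0.322). It passed once preparation was a block (adjusted p = 0.0378), but its second tested probe had a difference of -0.00 ± 0.09. The largest difference in the linker list was that of the xylose kinase gene Fam20b, 0.21 ± 0.14 (adjusted p = 0.769). Among chain sulfation genes it was that of the dermatan sulfotransferase gene Chst14, 0.09 ± 0.09 (adjusted p = 0.92). Chst12, which like Chst11 acts on the fourth carbon, had -0.08 ± 0.10 (adjusted p = 0.937), and Chst15, which adds a further sulfate to a chain already sulfated at that carbon, had -0.04 ± 0.11 (adjusted p = 0.978). The genes of these lists that were above the floor on too few arrays to be tested were Chsy1, Chsy3, Chpf2, Chst13, Ust and Dse.

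The donors of sulfate and sugar come from a further set of genes. Papss1, which makes the activated sulfate that all these enzymes use, had 13.85, 13.60 and 13.60 in cerebrum OPC, against 13.62, 13.39 and 13.44 in spinal cord OPC, a difference of 0.20 ± 0.10 (SE, limma adjusted p = 0.612). None of the 5 tested donor genes passed, and 0 had an unadjusted p under 0.05. Of 7 tested sulfotransferases that act on other sugars 0 passed and 1 had an unadjusted p under 0.05. That was Gal3st1, which makes the myelin lipid sulfatide, with 0.35 ± 0.12 (adjusted p = 0.267, and 0.0173 with the preparation as a block).

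Heparan sulfate is the sister chain built on the same linker, and 2 of its 16 tested synthesis genes passed, both lower in cerebrum. They encode sulfotransferases that act on the third carbon of glucosamine. Hs3st3b1 had 7.16, 7.24 and 6.94 in cerebrum OPC, against 7.93, 8.24 and 7.98 in spinal cord OPC, and fell by 0.93 ± 0.12 (log2, SE, limma adjusted p = 0.000735) in cerebrum. The groups were far apart, and the intensity in spinal cord was 1.91-fold higher. Hs3st1 had 6.43, 6.31 and 6.45 in cerebrum OPC, against 6.94, 6.80 and 6.71 in spinal cord OPC, a difference of -0.42 ± 0.10 (adjusted p = 0.0362). Hs3st3a1, a close relative of Hs3st3b1, had 6.17, 6.03 and 5.87 in cerebrum OPC, against 6.73, 6.79 and 6.22 in spinal cord OPC. Its difference was -0.55 ± 0.14 (adjusted p = 0.0658, and 0.00115 with the preparation as a block), with 1 of 3 cerebrum arrays above the floor. The similarity of the pair means that part of one probe's signal may come from the other gene, which was not tested. Glce, the epimerase of heparan sulfate, passed with the block (0.35 ± 0.16, adjusted p = 0.477, and 0.0221 with the block), while 2 further tested probes of it had 0.19 ± 0.10 and -0.01 ± 0.09.

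Among 15 other proteoglycan core proteins 1 passed, Gpc5, a glypican that carries heparan sulfate. It had 6.29, 6.14 and 6.12 in cerebrum OPC, against 6.56, 6.50 and 6.67 in spinal cord OPC, close to the floor in both, and differed by -0.40 ± 0.09 (SE, limma adjusted p = 0.0416). Aggrecan (Acan), the remaining lectican, and decorin (Dcn) were not above the floor on enough arrays to be tested.

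Partners and receptors of the members were read too. Of 10 tested receptors and ligands 1 passed. Ptprd, a receptor phosphatase of the LAR family, had 10.60, 10.40 and 10.39 in cerebrum OPC, against 9.86, 10.01 and 9.78 in spinal cord OPC, and rose by 0.58 ± 0.11 (log2, SE, limma adjusted p = 0.014) in cerebrum. A second probe gave 0.60 ± 0.11 (adjusted p = 0.0126) and the third 0.32 ± 0.11 (adjusted p = 0.258). Its relative Ptprs, a known receptor for chondroitin sulfate chains, had 0.03 ± 0.13 (adjusted p = 0.989). The Ptprz1 ligand pleiotrophin (Ptn) had -0.10 ± 0.09 (adjusted p = 0.894), and the Ptprz1 binding partner contactin (Cntn1) -0.20 ± 0.10 (adjusted p = 0.615).

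Of 5 tested genes for hyaluronan and matrix partners 0 passed, and 4 had an unadjusted p under 0.05. Of these 4, Has2 (0.30 ± 0.09, SE, limma adjusted p = 0.129) and Hapln4 (0.33 ± 0.12, adjusted p = 0.333) were higher in cerebrum. Hapln3 (-0.27 ± 0.11, adjusted p = 0.384) and Tnc were lower. Tenascin C (Tnc), a matrix protein that binds lecticans and phosphacan, had 8.26, 8.28 and 7.68 in cerebrum OPC, against 8.87, 8.91 and 8.30 in spinal cord OPC. Its groups lay apart by a narrow gap, since preparation 3 was low in both tissues, and the difference was -0.62 ± 0.19 (SE, limma adjusted p = 0.158). Within preparations it was -0.62, -0.63 and -0.62, and the adjusted p was 0.000173 once preparation was a block. Its 3 other tested probes had differences between -0.37 and -0.04, and none passed.

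None of 6 tested proteoglycan-cutting proteases passed, and 1 had an unadjusted p under 0.05, Adamts20 with 0.25 ± 0.08 (limma adjusted p = 0.242). Of 11 tested genes for chain breakdown 1 passed, Tmem2, which encodes a cell surface protein that cuts hyaluronan. It had 8.56, 8.41 and 8.01 in cerebrum OPC, against 7.53, 7.83 and 7.41 in spinal cord OPC, a rise of 0.74 ± 0.15 (log2, SE, adjusted p = 0.0216) in cerebrum. Its other tested probes gave 0.52 ± 0.15 (adjusted p = 0.117) and 0.20 ± 0.16 (adjusted p = 0.855). The call was lost with the mean of its tested probes (0.49, adjusted p = 0.185) and with background subtraction (0.94, adjusted p = 0.0574).

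Taking the 11 lists as a whole, 5 of 88 tested genes passed, 2 higher in cerebrum (Ptprd and Tmem2) and 3 higher in spinal cord (Hs3st3b1, Hs3st1 and Gpc5). That is 5.68% beside the 2.95% of all tested genes, and the median difference was -0.01. With the preparation as a block 10 passed, beside the 6.33% of all genes, the further genes being Csgalnact1, Gal3st1, Hs3st3a1, Glce and Tnc. Except for Hs3st3b1, each of the 5 lost its call in some fits without 1 array. Hs3st1 and Gpc5 also lost it without an intensity trend (adjusted p = 0.0501 and 0.0689), and Gpc5 with no filter on dim probes (adjusted p = 0.0512). In fits without 1 array, 1 of the 88 passed when cerebrum replicate 2 or spinal cord replicate 1 was left out, against 3 when spinal cord replicate 2 or 3 was.

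**Figure D3:**
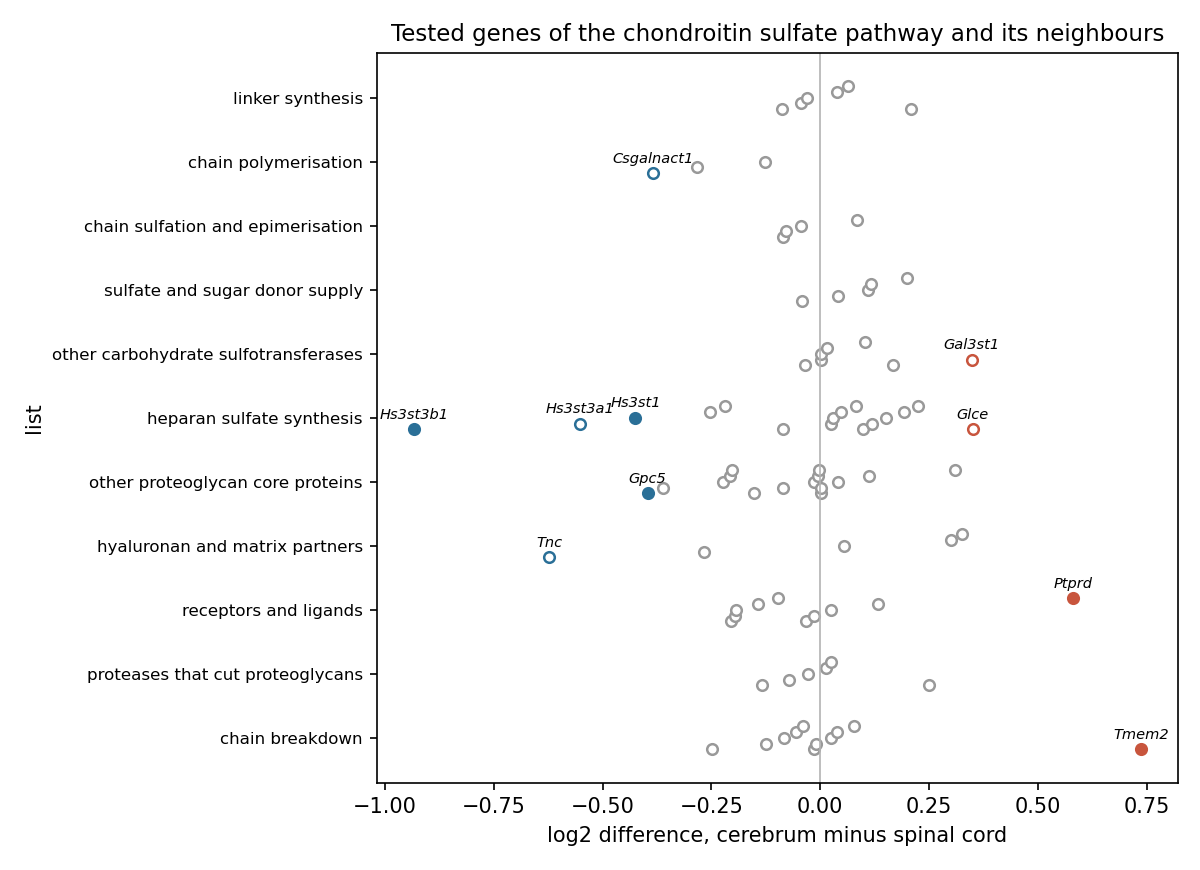
Log2 difference, cerebrum minus spinal cord, of the 88 tested genes that are not members, by list. Filled circles passed in the fit without a block, open coloured circles with the preparation as a block alone, and grey circles in neither (red higher in cerebrum, blue higher in spinal cord). The 13 genes of the 3 chain-making lists lie between -0.38 and 0.21, and Hs3st3b1 lies farthest left at -0.93.

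The label of the cells was checked against markers. All 6 OPC markers were above the floor on all 6 arrays, and their summed intensity was 66842 to 74266 in cerebrum and 61089 to 67101 in spinal cord. Gpr17, a receptor of precursors committed to differentiate, was like Chst7 higher in cerebrum, by 1.37 ± 0.23 (log2, SE, limma adjusted p = 0.00495). In the 3 cerebrum arrays Gpr17 had 12.17, 12.36 and 13.34 and Chst7 10.15, 10.20 and 9.51. With 3 arrays, whether the pair varies together within a tissue was not tested. Among oligodendrocyte markers Mbp was lower in cerebrum by the fit, -1.04 ± 0.11 (adjusted p = 0.000111), and Mog was below the floor on all arrays. Other tested Mbp probes had -1.17 ± 0.21 (limma adjusted p = 0.00887) and -0.12 ± 0.12 (adjusted p = 0.905). With preparation as a block Mag (adjusted p = 0.000249) and Cnp (adjusted p = 0.042) were lower in cerebrum too. Other tested Cnp probes had -0.33 ± 0.19 and -0.04 ± 0.16 without the block. The summed level of the 7 astrocyte markers was 13274 to 14354 in cerebrum and 15395 to 16805 in spinal cord, with Gfap and Gja1 below the floor on all arrays. Most of that sum came from Slc1a3 (mean log2 12.91 in cerebrum, 13.03 in spinal cord) and Aldoc (12.51 and 12.83). The next brightest, Slc1a2, had 6.96 and 7.17. None of the 4 tested genes of this list passed without the block, where 1 had an unadjusted p under 0.05. Aldoc passed with the block (-0.33 ± 0.10, limma adjusted p = 0.15, and 0.0126 with the block), and its other tested probe had -0.15 ± 0.10. Of the tested markers for microglia, neurons, endothelial and mural cells, fibroblasts and Schwann cells 0 passed in limma, 0 had an unadjusted p under 0.05, and Cx3cr1, Snap25, Pecam1, Pdgfrb and Col3a1 were below the floor on all arrays. In the same lists the neuron marker Syt1 was well above it on all 6 arrays, at 7.44 to 8.05 in cerebrum and 7.59 to 7.99 in spinal cord. The Schwann list's Egr2 was too, at 8.43 to 9.44 in cerebrum and 8.65 to 9.17 in spinal cord, and the microglia marker Aif1 lay just above the floor on all 6. The part of differentiation stage or of astrocytes in the Chst7 difference was not tested.

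The 4 genes whose profile over the 6 arrays lay closest to that of Chst7, by Euclidean distance of mean-centred log2 values, were Liph (0.618), Otx1 (0.649), Lpar4 (0.667) and Atp10b (0.748). Liph encodes a phospholipase that makes lysophosphatidic acid and Lpar4 a receptor for it, Otx1 is a homeobox gene of the forebrain, and Atp10b is a lipid-transporting ATPase. Liph had 9.98, 9.85 and 9.52 in cerebrum OPC, against 8.34, 8.31 and 8.27 in spinal cord OPC. As with Chst7, the third cerebrum array was the lowest of its tissue, and the same held for Otx1 (8.21, 8.50 and 7.38) and Lpar4 (7.62, 8.05 and 7.52). Otx1 was below the floor on all 3 spinal cord arrays. These genes were picked for their likeness over the same 6 arrays, so their difference between tissues is no further evidence.

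**Figure D4:**
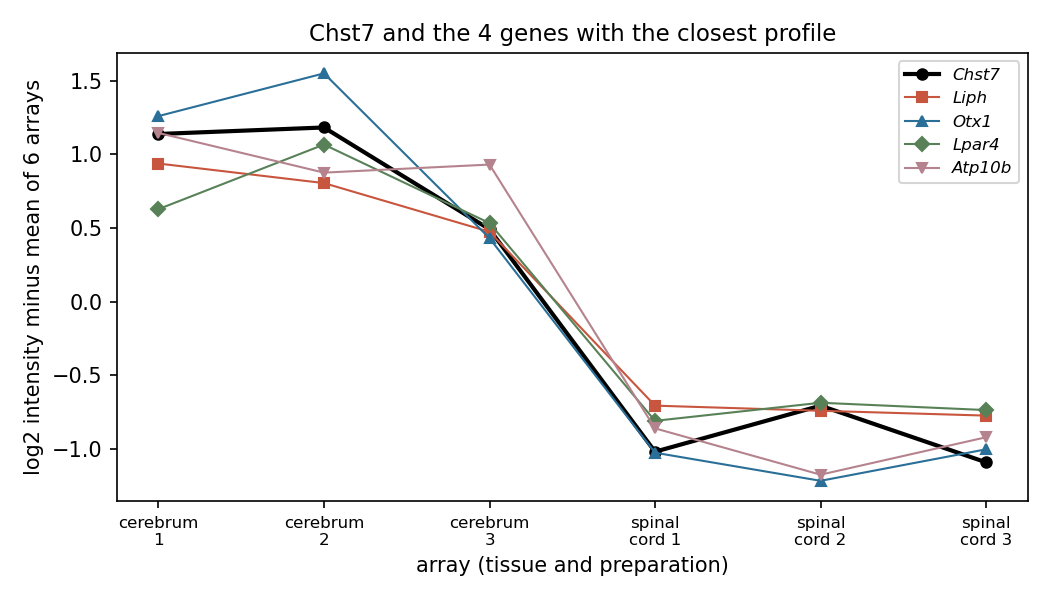
Log2 intensity minus the mean of the 6 arrays, for Chst7 (black) and the 4 genes with the closest profile, in the 3 cerebrum arrays (left) and the 3 spinal cord arrays (right). Lines only join the points of a gene. All 5 genes are high in cerebrum and low in spinal cord, and Chst7, Liph, Otx1 and Lpar4 have their lowest cerebrum value in preparation 3.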

How the data were processed

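RNA of 6 primary OPC cultures was measured on Illumina bead arrays. Values came from the authors' deposited table as intensities on a linear scale, 1 column per sample. The submitters' processing notes name GenomeStudio 2011.1. How the arrays were normalised is not stated in the sources used here. All arrays ran from 36.5 to 49682 with an upper quartile of 162.7, as arrays do after quantile normalisation. Quantile normalising these values again left 331 genes passing, so that alternative is hardly a check. A second deposited table holds 12 per-sample columns whose names match no sample's labels. Only its gene symbols were read.

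A probe was tested if it exceeded the 95th percentile of 1302 olfactory receptor probes of its array on at least 3 of 6 arrays (20988 of 45281 probes). Symbols were updated through NCBI's gene table for GRCm38.p6. limma 3.58.1 in R 4.3.3 was fitted to log2 intensity, cerebrum minus spinal cord, with an intensity trend and Benjamini-Hochberg adjustment over all tested probes. The fit was tested on simulated data. A gene was read from its brightest tested probe. A gene passed at an adjusted p under 0.05. The share of all tested genes with an unadjusted p under 0.05 was not computed, so counts of these are a description. Levels of different probes were compared only to pick the brightest of a gene and to describe the astrocyte marker sum. Precision is limited by there being 3 arrays per tissue. No build is named for the arrays, so the only coordinates given are those of the RefSeq windows.

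Samples of the same number share a preparation per the series' design text, and their deviations from the tissue means correlated with 0.53, 0.21 and 0.50 across probes. The main fit had tissue as its only term, so its SEs, adjusted p and counts do not use this pairing. Differences within preparations are given for some genes, and values with preparation as a block where these change a call. The members and lists were chosen with earlier results of these data known. All members are named, and of the other lists each gene that passed or else the one with the largest difference. Chst12, Chst15, Ptprs, Ptn, Cntn1, Glce, Hs3st3a1, Has2, Hapln3 and Hapln4 were added after their values were seen. The alternatives were a block, no filter, quantile normalisation, background subtraction, the mean of a gene's probes, no trend and each array left out. Some cell type marker results are not reported here.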

Additional observations from a re-analysis of the deposited data

How the results depend on the processing

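The Chst7 difference, which the choice of members had in view, ran from 1.75 to 2.11 over the 12 alternatives. The block, no filter and no trend cannot change a difference, only its error, and quantile normalisation hardly changed it. With these counted in, 118 of 120 recomputed member differences moved by less than 1 SD between replicates. The other 2 were Cspg5, at -0.08 with the mean of its probes, and Vcan, at -0.45 without cerebrum replicate 1, where another probe became its brightest. The brightest probe was picked anew in each alternative. Vcan also changed probe without cerebrum replicate 3 (-0.21) and without spinal cord replicate 1 (-0.35). Both are counted in the 118, though they compare different probes. With the replicate block, which pairs samples by preparation, 711 genes, 10 pathway genes and 2 members passed, against 331, 5 and 1 without it. Without 1 array the number of genes ran from 196 (without spinal cord replicate 2) to 574 (without cerebrum replicate 3), with 202 without cerebrum replicate 2 and 215 without spinal cord replicate 1, the number of pathway genes from 1 to 5 and the number of members was 1. Without an intensity trend 3 pathway genes passed. The alternatives were run for 12 pathway genes, those that passed or had the largest difference of a list without a call, and not for the genes added later. Of their 144 recomputed differences 22 lost their call, 5 gained it and 0 changed sign. Only the 5 genes that passed in the main fit could lose a call, so the 22 are not a share of all 144. Hs3st3b1 kept its call throughout, and the losses fell on Hs3st1, Gpc5, Ptprd and Tmem2. Here too the block, no filter and no trend could change a call but not a sign. The 3 arrays per tissue and signals near the floor, as for Gpc5, Hs3st1 and Xylt1, limit what could be seen. Among the genes named, the block changed no call other than those given.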
